A study of Mus musculus with 48 samples.

Results

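The comparison is that of BuOE with saline during spaceflight in the dentate gyrus (DG), and its members are the 6 DG areas of illumination (AOIs) of the flight mice, 3 of FLT-BuOE and 3 of FLT-SAL, out of 48 AOIs in the series. They were taken by slide, FLT_TX_2 for FLT-BuOE and FLT_SAL_2 for FLT-SAL, and all 15782 genes of the DG table were compared. The series holds 12 male C57BL/6 mice, 10 weeks old at launch, 3 in each of 4 groups. In every mouse 1 AOI was measured in each of 4 brain regions (CA and DG of the hippocampus, frontal cortex FCT and cortex CT). FLT-SAL and FLT-BuOE mice spent 35 days on the space station and received weekly subcutaneous saline or BuOE, MnTnBuOE-2-PyP5+, at 1 mg/kg in 0.2 mL, with the first dose 7 days before launch. Both groups reached the laboratory within 20 hours of splashdown and were killed under ketamine and xylazine. GC-SAL and GC-BuOE mice had the same food, light cycle and injections in flight hardware cages on the ground, on a protocol that began 3 days later. Each slide held the mice of a single group, so that slide effects and group effects cannot be told apart. No untreated flight group without injections was analysed here, and each AOI took the whole outlined region without a cell marker, so its RNA comes from every cell type in the outline.

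The DG receives the main cortical input to the hippocampus through its granule cells, which are small, densely packed excitatory neurons whose axons, the mossy fibres, contact the pyramidal cells of CA3. It also holds inhibitory interneurons, mossy cells of the hilus, astrocytes, microglia and few myelinated fibres, and in adult rodents new granule cells are born along its inner border. BuOE is a manganese porphyrin that catalyses the removal of superoxide, as the superoxide dismutases of the cell do, and it has been used to protect tissue against oxidative stress. Spatial profiling counts DNA tags released by light from probes that are hybridized to the transcripts in an AOI. The values given are Q3-normalized counts, in which each AOI is scaled to the same upper quartile, and differences are log2 fold changes of FLT-BuOE over FLT-SAL unless another pair is named.

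The 6 AOIs differed in depth along the comparison. Deduplicated counts ran from 965868 to 1372780 in FLT-SAL and from 416744 to 628791 in FLT-BuOE, and nuclei per AOI from 545 to 640 and from 401 to 453, so neither measure overlapped between the groups. The negative-control value, from probes that match no transcript, was 9.58 to 12.3 in FLT-SAL and 10.4 to 11.9 in FLT-BuOE, and 92.4% to 97.5% and 89.0% to 92.8% of genes exceeded 1.5 times that value. Log2 values of pairs of mice correlated, across genes, at 0.905 to 0.920 in FLT-SAL and at 0.815 to 0.852 in FLT-BuOE.

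The AOIs carried the markers of their label. Of 13 granule cell markers, 12 had their highest mean in DG among the 4 regions, each on a Q3 scale with the same upper quartile, and 6 of them were higher in every one of the 12 DG AOIs than in any AOI elsewhere. Prox1, the transcription factor that sets granule cell identity, had a mean of 112 in DG and 32.2 in CA, and Stxbp6, C1ql2, Plk5, Rfx3 and Dock10 were the others. Tdo2 was the exception, with means of 21.5 in DG and 22.8 in CA. None of the 9 CA1 markers was highest in DG, and Wfs1, a CA1 marker, had means of 31.1 in DG and 91.8 in CA.

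The granule cell markers showed no called difference between the groups. Prox1 stood at 119 in FLT-SAL and 115 in FLT-BuOE (log2 fold change -0.08, 95% interval -0.38 to 0.22), and Stxbp6 and Calb1, a calcium buffer of mature granule cells, at 0.07 and 0.06. The summed level of the 13 markers was 945 to 1077 in FLT-SAL and 879 to 1020 in FLT-BuOE, with overlap. Dsp, a desmosome protein that marks granule cells, was the only marker with an unadjusted p below 0.05, at 44.5, 43.1 and 55.7 in FLT-SAL against 28.3, 33.8 and 40.02 in FLT-BuOE (log2 fold change -0.48, adjusted p = 0.781).

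No gene passed the threshold between FLT-BuOE and FLT-SAL in DG. Called means a Benjamini-Hochberg adjusted p below 0.05 in limma and a fold change beyond 1.5 in either direction, and 0 of 15782 genes (0%) met it, nor did any gene have an adjusted p below 0.05 without the fold. A fold change beyond 1.5 without regard to the test was found for 285 genes (1.81%). The smallest adjusted p was 0.137, shared by the first 5 genes. At an unadjusted p below 0.05 there were 978 genes (6.2%), 333 higher (2.11%) and 645 lower (4.09%) in FLT-BuOE. The groups of 3 did not overlap for 792 genes that were higher (5.02%) and 1065 that were lower (6.75%). On counts, DESeq2 called 0 genes, with 329 at an unadjusted p below 0.05 (2.09%), and edgeR called 6 (0.038%), with 1044 (6.62%). The median gene had a 95% interval of 0.46 on either side of its log2 fold change.

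Of the 6 genes that edgeR called, Mmp17, a membrane-anchored matrix metalloproteinase, separated the groups in all 6 mice and had an adjusted p of 0.015 in edgeR's quasi-likelihood test, but with 1 flight mouse left out edgeR called it in 1 of 6 fits, that without FLT-SAL mouse 3. Clec2j, a C-type lectin, was at 105, 70.2 and 59.3 in FLT-SAL against 217, 146 and 78.9 in FLT-BuOE, so the groups overlapped. The other 4 rested on 1 mouse. Snx5, a sorting nexin of endosomes, was at 31.7 and 38.8 in 2 FLT-BuOE mice and at 790 in the third, against 35.3 to 38.6 in FLT-SAL, and the same FLT-BuOE mouse 3 held the outlying value of Kank2 (137, against 18.6 to 31.9 in the other 5 mice) and of Dsel (61.1, against 15.01 to 28.3). Ptprr stood at 278 in FLT-SAL mouse 3 and at 18.7 to 30.02 in the other 5 mice.

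The 20 genes of smallest p, none of them called, had adjusted p from 0.137 to 0.317 in limma, 15 were lower and 5 higher, and the groups of 3 did not overlap for 19. These counts follow from choosing by p and are given as a description. Positions were looked up by symbol in GENCODE for GRCm38.

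Nrgn encodes neurogranin, a postsynaptic protein that binds calmodulin at low calcium, and lies on chromosome 9 (37544492 to 37552904, minus strand). It was at 2167, 1935 and 1795 in FLT-SAL and at 1302, 1572 and 1356 in FLT-BuOE. Every FLT-BuOE mouse was below every FLT-SAL mouse, with means of 1966 ± 188 and 1410 ± 143 (SD, n = 3 each). The log2 fold change was -0.48 (SE 0.11, limma adjusted p = 0.137), and at 135 times the negative-control value it was the most abundant of the 20. On the ground BuOE and saline mice differed by 0.18 (adjusted p = 0.955), and FLT-SAL exceeded GC-SAL by 0.64 (adjusted p = 0.000477). The last comparison shares the FLT-SAL mice with the present one, and a value of theirs enters both with opposite sign. It called 0.266% of all genes, and at an unadjusted p below 0.05 held 4.43% higher and 2.98% lower (7.41% in all).

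Adcy1, the calcium-stimulated adenylyl cyclase of neurons (chromosome 11, 7063489 to 7178506), was at 457, 350 and 387 in FLT-SAL and at 245, 268 and 305 in FLT-BuOE. The lowest saline mouse was above the highest BuOE mouse, and the log2 fold change was -0.54 (SE 0.12, adjusted p = 0.137). Ncdn encodes neurochondrin, a neuronal protein that inhibits phosphorylation of CaMKII. It was at 670, 611 and 680 against 369, 574 and 475, again without overlap, at -0.49 (SE 0.12, adjusted p = 0.267). Eef1a2, the translation elongation factor of neurons and muscle, was at 220, 245 and 222 against 158, 175 and 161 (-0.47, SE 0.13, adjusted p = 0.317).

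Wipf3, a WASP-interacting actin regulator (chromosome 6, 54429603 to 54503768), was at 156, 138 and 179 in FLT-SAL and at 60.03, 100.1 and 125 in FLT-BuOE. The spread was wide in FLT-BuOE, and the log2 fold change was -0.78 (SE 0.17, adjusted p = 0.137). Mmp17 (chromosome 5, 129584169 to 129611099) was at 121, 124 and 106 against 76.7, 68.8 and 67.8, a tight separation with a log2 fold change of -0.71 (SE 0.15, adjusted p = 0.137). Sorl1, a sorting receptor that steers the amyloid precursor protein, was at 94.9, 80.0 and 86.5 against 38.4, 70.0 and 55.6 (-0.70, SE 0.17). Dpysl5, a collapsin response mediator of growing neurites, had means of 40.9 ± 5.55 and 22.7 ± 6.62 (-0.86). The remaining lower genes were Prss30, Sly, Rnf123, Olfr1350, Nudt3, Phxr4 and Mxd4, with log2 fold changes between -0.66 and -1.31. Prss30 and Olfr1350 had levels of 1.88 and 2.14 times the negative-control value, and Sly belongs to a family of near-identical copies on the Y chromosome. These 3 are thus less certain still than the other genes here, none of which was called. With the log2 depth of each AOI as a covariate, Dpysl5 and Nudt3 changed sign and the difference of Wipf3 shrank, while Nrgn, Mmp17 and Adcy1 stayed lower.

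Of the 5 that were higher in FLT-BuOE, all but Clec2j separated the groups. Wdhd1, a DNA replication factor (chromosome 14, 47240944 to 47276857), was at 42.2, 44.2 and 42.2 in FLT-SAL and at 73.4, 80.0 and 61.1 in FLT-BuOE. The log2 fold change was 0.72 (SE 0.17, adjusted p = 0.182), and FLT-SAL over GC-SAL was -0.80 (adjusted p = 0.0117). Mfsd14a, a membrane transporter, was at 31.1, 34.3 and 30.7 against 55.03, 55.03 and 48.9 (0.71, adjusted p = 0.291). Gast, the gastrin gene, was at 20.8, 25.5 and 13.6 against 45.0, 36.3 and 38.9, a log2 fold change of 1.01 (SE 0.23, adjusted p = 0.137) at 2.57 times the negative-control value. 2310061I04Rik had means of 110 ± 5.69 and 159 ± 7.81 (0.53, adjusted p = 0.317), and Clec2j is described above.

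**Figure D1:**
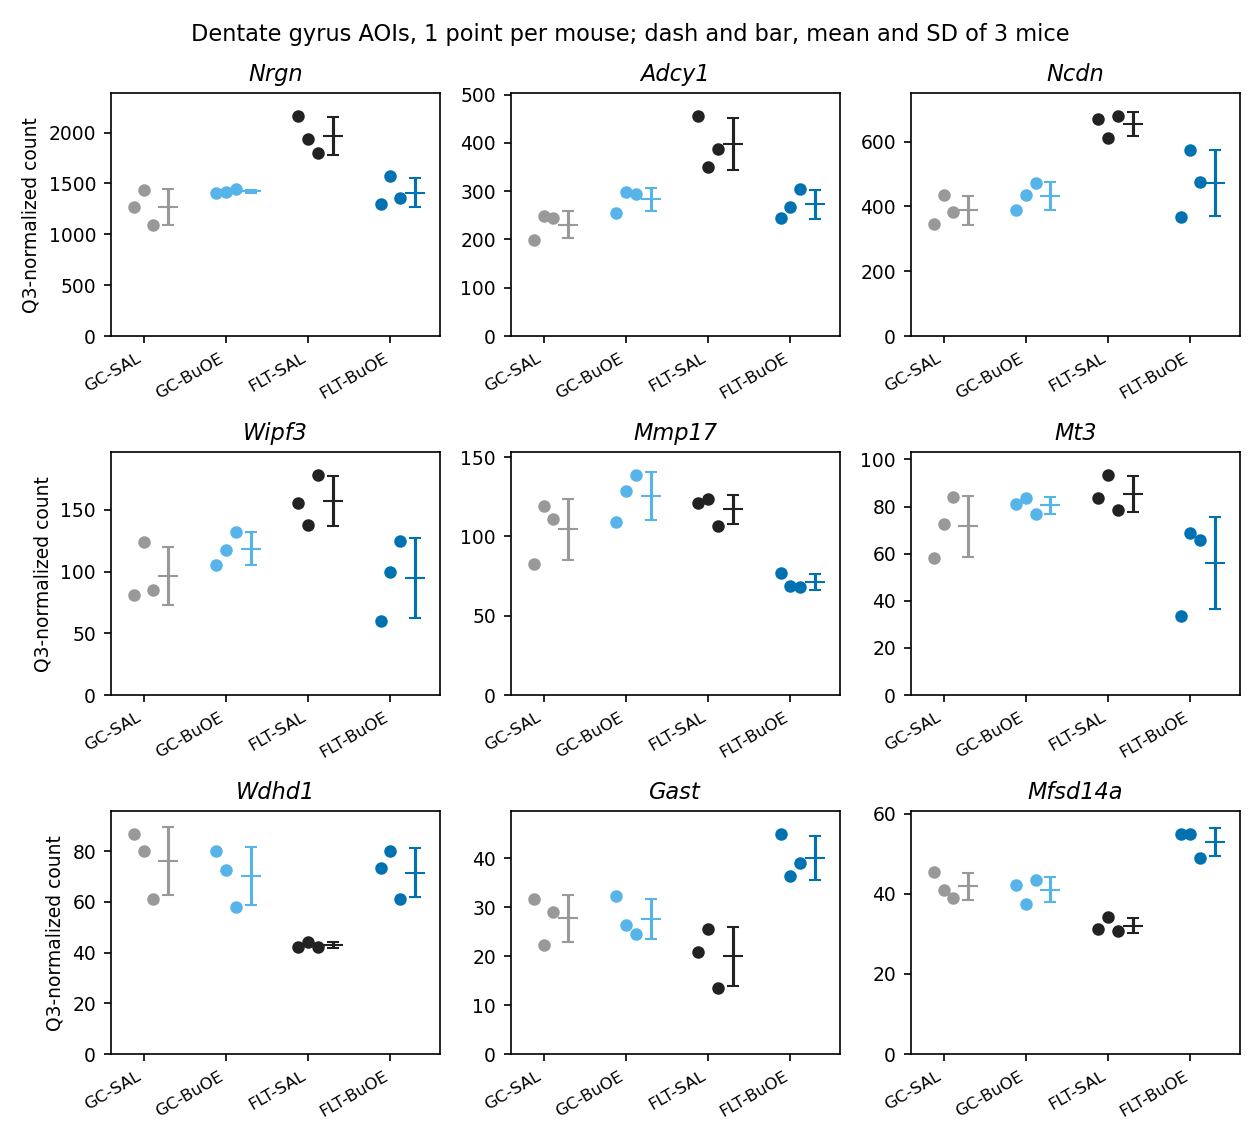
Q3-normalized counts (y axes, from 0) of 9 genes in the 12 DG AOIs by group, 1 point per mouse, with the mean and SD of 3 mice beside them. In the 6 genes of the upper rows, such as Nrgn at 1302 to 1572 against 1795 to 2167, all FLT-BuOE points lie below the FLT-SAL points, and in Wdhd1, Gast and Mfsd14a they lie above them.

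No gene list had a called member. Among 23 genes of synaptic vesicles and release, 7 were lower and 2 higher at an unadjusted p below 0.05, and the list median was -0.16 (0.03 with the log2 depth of each AOI as a covariate), beside a median of -0.02 over all genes. Nsf, the ATPase that takes apart used fusion complexes, was at 162, 162 and 134 in FLT-SAL and at 88.4, 140.1 and 111 in FLT-BuOE (-0.45, adjusted p = 0.477), with overlap. Dnm1, the dynamin that pinches off vesicles, was at 89.7, 91.5 and 99.3 against 53.4, 78.8 and 77.8, without overlap (-0.43, adjusted p = 0.675). Snap25, Vamp2 and Syt7 were at -0.35, -0.27 and -0.27, while Stx1a and Syn2 were at 0.39 and 0.31.

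Among 21 genes of the postsynaptic density and glutamate receptors, 6 were lower and 0 higher at an unadjusted p below 0.05, with a median of -0.14 (0.06 with the depth covariate) and 17 of 21 below 0. Psd, an exchange factor for ARF6 at the postsynaptic density, was at 223, 242 and 312 against 162, 214 and 172, so all BuOE mice were lower (-0.50, SE 0.14, adjusted p = 0.317). Grin2a, the GluN2A subunit of NMDA receptors, was at 413, 366 and 382 against 295, 321 and 305, a narrow spread in FLT-BuOE and no overlap (-0.33, adjusted p = 0.540). Camk2b, Camk2a and Gria3 were at -0.35, -0.25 and -0.36. The summed level of the 21 genes was 6123 to 6331 in FLT-SAL and 4845 to 5693 in FLT-BuOE, a sum in which Nrgn has the greatest share.

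Of 30 calcium signalling genes, 7 were lower and 2 higher at that threshold, with a median of -0.08 (0.04 with the depth covariate). Calm3, a calmodulin gene, was at 159, 205 and 185 against 88.4, 163 and 147 (-0.50, adjusted p = 0.432, and 0.39 with the depth covariate). Hpca encodes hippocalcin, a calcium sensor of hippocampal neurons, and was at 392, 432 and 406 against 290, 370 and 283, without overlap (-0.39, adjusted p = 0.477). Atp2b4, a plasma membrane calcium pump, went the other way, at 14.1, 20.8 and 21.4 against 30.02, 27.5 and 31.1 (0.65, adjusted p = 0.682). Of 21 actin, tubulin and cytoskeleton genes, 4 were lower and 0 higher, and 19 of 21 were below 0 with a median of -0.14 (0.00 with the depth covariate), Actb among them at -0.36.

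The lists of the translation and energy machinery had small values, mostly below 0. Over all genes, 8518 of 15782 were below 0 and 4.09% were lower at an unadjusted p below 0.05. At 4 to 8 times the negative-control value 62.0% of genes were below 0 and 6.89% lower. At 8 to 16 times 68.5% were below 0 and 13.6% lower. The counts of the lists here and above are to be read beside these shares. Of 77 cytosolic ribosomal protein genes, 62 were below 0, 8 were lower and 0 higher at an unadjusted p below 0.05, and the median was -0.09. Rpl13 was at 343, 309 and 332 in FLT-SAL and at 247, 270 and 278 in FLT-BuOE (-0.31, adjusted p = 0.681). Of 86 genes of oxidative phosphorylation, which makes ATP in mitochondria, 66 were below 0 and 5 were lower and 0 higher, with a median of -0.11. Atp5md, a subunit of ATP synthase, was at 71.2, 71.2 and 54.3 against 31.7, 48.8 and 42.2 (-0.68, adjusted p = 0.317), and Atp5b, its catalytic subunit, was at -0.36.

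**Figure D2:**
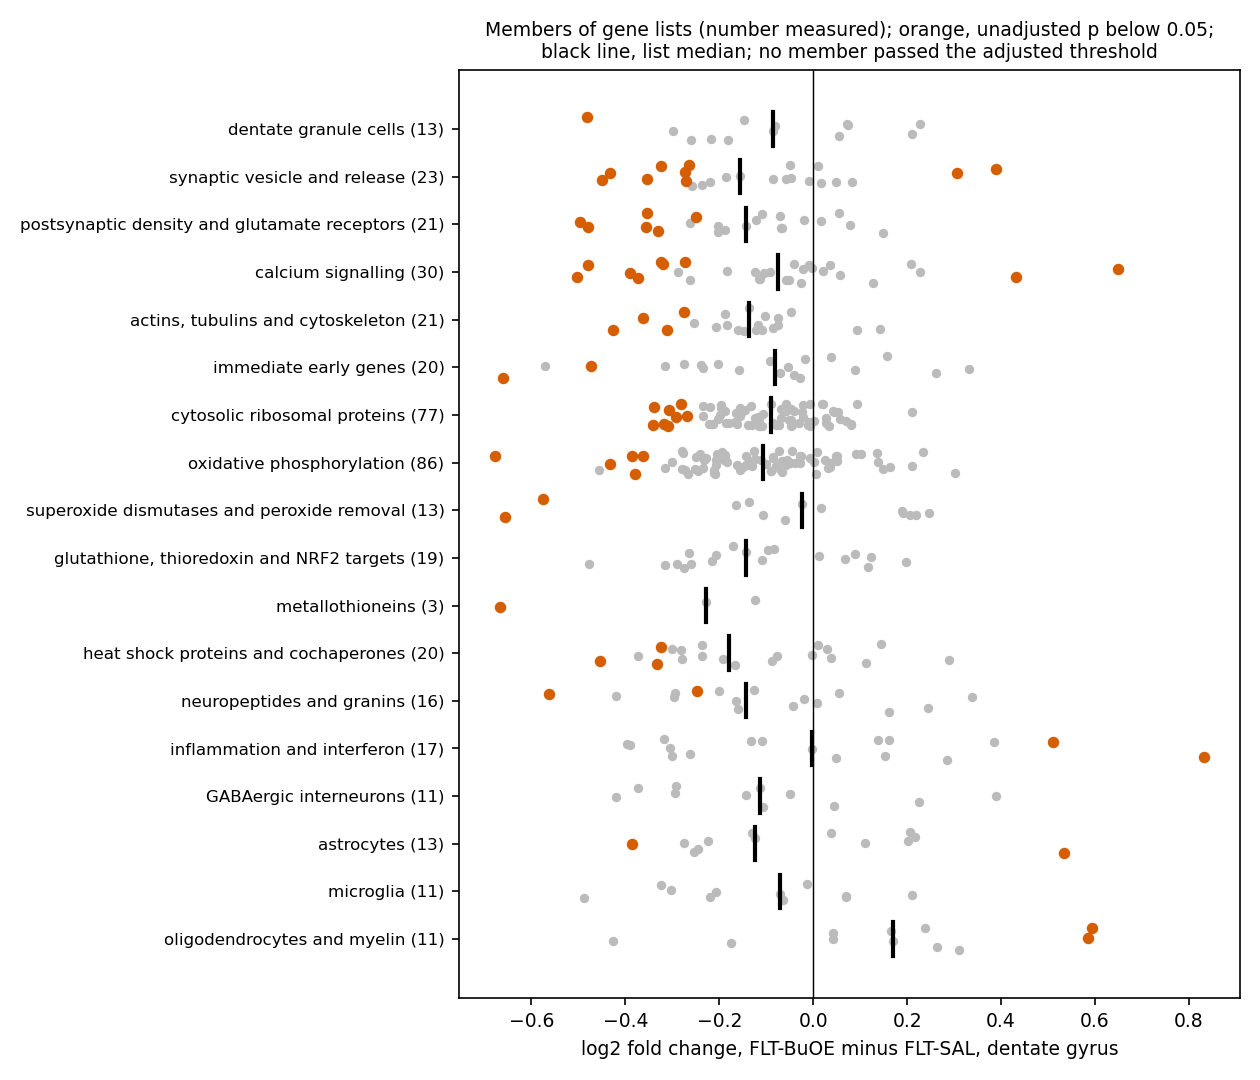
Log2 fold change of FLT-BuOE over FLT-SAL in DG (x axis) for each measured member of 18 gene lists, with the number of members in brackets. Orange points have an unadjusted p below 0.05 and the black line is the list median, which runs from -0.23 in the 3 metallothioneins to 0.17 in the 11 oligodendrocyte and myelin genes.

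The share of lower genes was greater at higher levels. Among the 9395 genes at 2 to 4 times the negative-control value, averaged over the 12 DG AOIs, 3.07% were lower and 2.42% higher at an unadjusted p below 0.05, and the median log2 fold change was -0.00. At 4 to 8 times, 6.89% of 2207 genes were lower, at 8 to 16 times 13.6% of 501, and at 16 times and over 19.8% of 192, where 1.04% were higher. The medians of these 3 classes were -0.06, -0.09 and -0.09, and those of FLT-SAL over GC-SAL, which shares the FLT-SAL mice, were 0.08, 0.16 and 0.15. The median SE falls from 0.23 at 2 to 4 times to 0.12 in the top class. The share of genes below 0, which uses no test, goes from 50.3% to 70.3% between the same classes. Depth moved with the groups as given above. The parts of the SE and of depth in this gradient were not tested. With depth as a covariate the medians of the ribosomal and oxidative phosphorylation lists were -0.10 and -0.03.

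**Figure D3:**
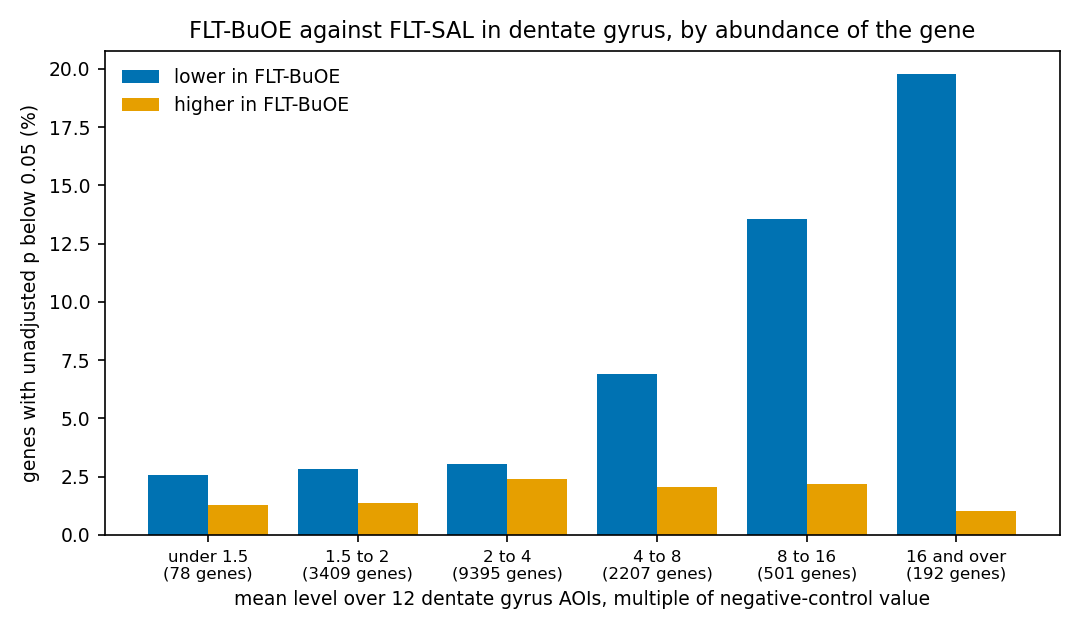
Share of genes (y axis, %, from 0) that were lower or higher in FLT-BuOE at an unadjusted p below 0.05, by class of mean level over 12 DG AOIs in multiples of the negative-control value (x axis). The share of lower genes goes from 3.07% at 2 to 4 times to 19.8% at 16 times and over, while that of higher genes stays between 1.04% and 2.42%.

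The enzymes that remove superoxide, the reaction of BuOE, and those that remove peroxide showed no called difference. Sod1, the cytosolic superoxide dismutase, was at 110.4, 122 and 111 in FLT-SAL and at 110.1, 115 and 88.9 in FLT-BuOE, with overlap, and its log2 fold change of -0.14 had a 95% interval from -0.43 to 0.16. Sod2, the mitochondrial enzyme, was at 63.0, 62.4 and 68.6 against 58.4, 60.03 and 54.5, which did not overlap, at -0.16 (interval -0.49 to 0.16, adjusted p = 0.933). Cat, the catalase gene, and Gpx1, a glutathione peroxidase, were at 0.19 each, with intervals from -0.28 to 0.66 and from -0.23 to 0.61.

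Of the 13 genes for superoxide and peroxide removal, 2 were lower and 0 higher at an unadjusted p below 0.05, both of them peroxiredoxins. Prdx1 was at 46.7, 30.1 and 40.7 against 20.0, 30.02 and 23.3, with the groups only just apart (-0.66, SE 0.21, adjusted p = 0.432), and Prdx6 was at 32.6, 31.2 and 41.5 against 25.01, 20.0 and 24.5 (-0.57, adjusted p = 0.745). The list median was -0.02, the same as over all genes. Of 19 genes of glutathione, thioredoxin and the targets of NRF2, the factor that switches on antioxidant enzymes, 0 passed that threshold in either direction and the median was -0.14. Among them Hmox1 was at 0.20 (interval -0.30 to 0.70) and Nqo1 at -0.10 (-0.50 to 0.31).

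Mt3, the metallothionein of neurons, binds zinc and copper and is abundant in the mossy fibre system. It was at 83.8, 93.6 and 78.6 in FLT-SAL and at 33.4, 68.8 and 65.6 in FLT-BuOE (-0.67, SE 0.18, adjusted p = 0.317, and 0.30 with the depth covariate), with no overlap and the lowest value in mouse 1. Mt1 and Mt2, the widely expressed forms, were at -0.12 and -0.23 with overlap. Of 20 heat shock proteins and cochaperones 3 were lower and 0 higher at an unadjusted p below 0.05, with a median of -0.18 (0.05 with the depth covariate), and they were Hspa8 (-0.32), Hsp90ab1 (-0.33) and Hsph1 (-0.45).

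Of 11 oligodendrocyte and myelin genes 9 were above 0, 2 were higher and 0 lower at an unadjusted p below 0.05, and the median was 0.17 (0.24 with the depth covariate, and -0.011 without FLT-BuOE mouse 2). Ermn, a late myelin protein, was at 22.2, 27.03 and 25.7 in FLT-SAL against 38.4, 42.5 and 33.4 in FLT-BuOE, without overlap (0.59, adjusted p = 0.546). Mbp, Mobp and Cldn11 were at 0.04, 0.26 and 0.16, and Opalin at -0.43. The summed level of the list was 568 to 619 in FLT-SAL and 615 to 850 in FLT-BuOE. In such samples more cells of a type and more RNA per cell cannot be told apart.

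Other cell types and processes gave little. Of 11 microglial genes 0 passed an unadjusted p of 0.05 (median -0.07), of 11 interneuron genes 0 (median -0.11), of 8 endothelial genes 0 (median 0.04) and of 7 genes of the neurogenic niche 0 (median -0.25), among them Dcx at -0.29. Of 13 astrocyte genes Gfap was lower (-0.38) and Sox9 higher (0.53) at that threshold. Of 17 genes of inflammation and interferon 2 were higher, the chemokines Cxcl10 (13.4 ± 4.70 against 23.8 ± 3.22) and Ccl2 (19.2 ± 4.56 against 27.7 ± 6.18), at 1.67 and 2.09 times the negative-control value. Ptgds, prostaglandin D synthase of meninges and oligodendrocytes, was the only one of 11 genes for meninges, mural cells and choroid plexus, at 86.0, 123 and 91.5 against 150.1, 154 and 110.1 (0.46, adjusted p = 0.745). The lists of CA1 (9 genes), CA3 (7), mossy cell (4), oligodendrocyte precursor (6) and cold-inducible genes (2) had 0 at that threshold, as had Hba-a1, the only red cell gene measured.

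Of 20 immediate early genes, which neurons switch on within minutes of activity, 2 were lower and 0 higher at an unadjusted p below 0.05, and 15 were below 0 with a median of -0.08 (0.01 with the depth covariate). Junb, a subunit of the AP-1 transcription factor, was at 61.5, 57.7 and 48.6 in FLT-SAL and at 35.0, 43.8 and 41.1 in FLT-BuOE (-0.47, adjusted p = 0.656). Fos was at 21.5, 21.8 and 20.0 against 15.01, 16.3 and 8.89, at 1.61 times the negative-control value. Arc, a synaptic plasticity gene, had overlapping values at means of 44.6 ± 5.51 and 42.4 ± 10.4. In the list of 16 neuropeptide and granin genes 2 were lower, Tac1 (-0.56) and Nptx1 (-0.25), the latter a neuronal pentraxin and not a neuropeptide. Single genes were lower among 12 glucocorticoid-responsive genes (Tsc22d3, -0.62), among 19 clock genes (Bhlhe41, -0.48) and among 16 genes of apoptosis and DNA damage (Atf4, -0.55).

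The study singled out 12 genes in DG on these same samples, so their direction is not independent evidence. Sst, Crygc, Psrc1, Abtb2 and Kcna4 were its top genes of FLT-SAL against GC-SAL, not of the BuOE contrast. That comparison shares the FLT-SAL mice, whose values enter the present one with opposite sign. Atp2b4 was named there for a strong reversal of the flight change by BuOE. In FLT-BuOE against FLT-SAL 0 of the 12 were called, 1 was higher and 2 lower at an unadjusted p below 0.05, and the median was -0.27 (0.22 with the depth covariate). Sst, the somatostatin gene of interneurons, had means of 47.0 in FLT-SAL and 34.2 in FLT-BuOE (-0.42, 95% interval -0.97 to 0.13). Syp, the vesicle protein synaptophysin, had means of 270.2 and 231 (-0.26, interval -0.52 to 0.01). Camk2b was at 390, 366 and 369 against 227, 345 and 321 (-0.35, adjusted p = 0.610), with the lowest value in BuOE mouse 1. Atp2b4 and Dnm1, given above, were the other two at that threshold, and Crygc, Kcna4, Prepl and Ptgs1 were at -0.27, -0.27, -0.35 and -0.09, and Psrc1, Abtb2 and Aldh1b1 at 0.39, 0.43 and 0.34.

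The same contrast on the ground asked whether BuOE acted in DG without flight. GC-BuOE against GC-SAL gave 0 called genes in limma (0%), with 822 at an unadjusted p below 0.05 (5.21%, 2.24% higher and 2.97% lower), 0 in DESeq2 (231 at that threshold, 1.46%) and 5 in edgeR (0.0317%, with 761 or 4.82%). Khnyn and Pik3r4, 2 of those 5, rest on 1 GC-SAL mouse, at 199 and 3437 in mouse 2. For the leading flight genes the ground differences were 0.18 for Nrgn, 0.30 for Adcy1, 0.27 for Mmp17, 0.31 for Wipf3 and -0.11 for Wdhd1, each with an adjusted p of 0.897 or more.

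The difference between the 2 BuOE contrasts, tested as an interaction, passed for 0 genes in limma (0%), with 448 higher (2.84%) and 561 lower (3.55%) at an unadjusted p below 0.05 (6.39% in all), 0 in DESeq2 (358 at that threshold, 2.27%) and 7 in edgeR (0.0444%, with 1011 or 6.41%). With the depth covariate limma called 3 (0.019%). The smallest adjusted p in limma, 0.0790, belonged to Klf9, a transcription factor that responds to glucocorticoid and thyroid hormone, and to Adcy1. Klf9 was at 106, 101.4 and 104 in FLT-SAL and at 60.03, 73.8 and 77.8 in FLT-BuOE, a log2 fold change of -0.56 in flight and 0.54 on the ground, which gave an interaction of -1.096 (SE 0.22). The interaction was -0.84 for Adcy1 (SE 0.17), -0.98 for Mmp17 (SE 0.21, adjusted p = 0.0810) and -0.65 for Nrgn (SE 0.15, adjusted p = 0.159). Adcy1, Klf9 and Mmp17 were among the 7 genes of edgeR, as were Khnyn, Pik3r4 and Snx5, which rest on single mice.

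Whether DG differed from the other regions of the same mice was tested on the difference of log2 values between 2 regions within each mouse, in which a shift common to the 2 AOIs of a mouse, its slide included, drops out. Against CA, 1 gene passed an adjusted p below 0.05 (0.00634%), and at an unadjusted p below 0.05 there were 2.59% higher and 1.57% lower (4.16% in all). Cpne7, a calcium-dependent membrane-binding copine, was at 20.0, 24.9 and 35.0 in FLT-SAL and 16.7, 40.02 and 31.1 in FLT-BuOE in DG, with overlap, and at 56.5, 84.2 and 98.5 against 254, 216 and 256 in CA. The difference of DG from CA was -1.54 (SE 0.28, limma adjusted p = 0.0122), while the log2 fold change was 1.62 in CA (adjusted p = 2.36e-07) and 0.08 in DG. Its level in DG was low, beside negative-control values of 9.58 to 12.3 in FLT-SAL and 10.4 to 11.9 in FLT-BuOE. The call was lost with the mouse as a random block, and when FLT-BuOE mouse 1 or either of FLT-SAL mice 1 and 3 was left out.

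The comparisons of DG with the cortical regions were added after the data were seen. In both CT and FCT the outlines of FLT-BuOE mice were smaller than those of FLT-SAL mice and held fewer nuclei, without overlap. A difference in outline that is particular to the cortex does not drop out within mice, and its part was not tested. In each, 15 genes passed (0.095%), 8 higher (0.0507%) and 7 lower (0.0444%) in DG relative to CT, and 3 higher (0.019%) and 12 lower (0.076%) in DG relative to FCT. At an unadjusted p below 0.05 the shares were 5.41% and 6.68%. Against CT the lead was held by myelin genes, of which 4 of 11 passed, all higher in DG. Mobp, a protein of compact myelin, was at 119, 164 and 137 against 137, 200.1 and 168 in DG, with overlap, and fell in CT from 459, 653 and 466 to 190, 253 and 231 (-1.21, adjusted p = 1.07e-05), which gave differences of 1.48 from CT (SE 0.17, adjusted p = 2.31e-09) and of 1.08 from FCT (SE 0.19, adjusted p = 0.00129). Mbp and Cldn11 differed from CT by 0.85 and 1.20 (adjusted p = 0.0313 each), and from FCT by 0.71 and 0.79, which did not pass. Ptgds differed by 1.38 from CT (adjusted p = 0.000305) and by 1.1 from FCT (adjusted p = 0.00727). The median of the 11 myelin genes was 0.17 in DG, -0.22 in CA, -0.58 in FCT and -0.73 in CT.

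Nrgn differed the other way. It was lower in FLT-BuOE in DG, as given above, and stood at 1338, 1511 and 1881 in FLT-SAL and at 2254, 2397 and 1810 in FLT-BuOE in CT, and at 969, 1326 and 1188 against 2180, 1737 and 1657 in FCT. In FCT all BuOE mice were above the saline mice (0.68, adjusted p = 0.0955), and in DG all were below them. The difference was -0.93 from CT (SE 0.14, adjusted p = 4.43e-05) and -1.16 from FCT (SE 0.15, adjusted p = 6.62e-07), and -0.18 from CA (SE 0.11), where Nrgn stood at -0.30. Hpca differed by -0.82 from CT (adjusted p = 0.0106) and by -1.13 from FCT (adjusted p = 0.000114), with 86.3, 104 and 123 in FLT-SAL and 183, 181 and 158 in FLT-BuOE in FCT, and it was lower in CA by a like amount (-0.40). Camk2a, the alpha subunit of CaMKII, passed against FCT, at -0.90. Camk2n1, an inhibitor of CaMKII, passed against both at -0.75 and -0.90, although in DG itself it stood at 0.05. C1qtnf4 passed against both as well, at -0.81 and -0.96, and was at 186, 153 and 138 against 110.1, 111 and 115 in DG. Of the 21 postsynaptic genes 1 passed against CT and 2 against FCT, and of the 30 calcium genes 1 and 2, all lower in DG. Of 23 synaptic vesicle genes, 11 interneuron genes and 16 neuropeptide genes 0 passed against either region. Their median differences were -0.03, 0.19 and 0.08 from CT, and -0.23, 0.12 and -0.13 from FCT. At an unadjusted p below 0.05, 5 of the 23 vesicle genes were lower and 0 higher against FCT. Against CT 0 were lower and 2 higher.

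Immediate early genes differed between DG and FCT. Of 20, 3 passed, all lower in DG, and 10 were lower and 0 higher at an unadjusted p below 0.05. Arc rose in FCT from 89.2, 61.5 and 66.6 to 256, 224 and 260.2 (1.77, adjusted p = 1.29e-05) and stood at -0.09 in DG, a difference of -1.86 (SE 0.27, adjusted p = 1.17e-05). Junb rose in FCT by 1.22 (adjusted p = 1.29e-05), and its difference was -1.70 (SE 0.23, adjusted p = 4.60e-06). Egr1, a zinc finger factor induced by activity, rose in FCT by 1.13 (adjusted p = 0.0297) and stood at -0.05 in DG, with a difference of -1.19 (adjusted p = 0.0260), and Jdp2, a repressor of AP-1, followed at -1.18. Against CT 0 of the 20 passed, with Arc at -0.73 and Egr1 at -0.82. Other genes that passed were Cnksr2 and Osbp2 against FCT, and Kcnh5, Crym, Tmsb10, Fth1 and Lamp5 against CT. Means of these last 5 in FLT-SAL and FLT-BuOE, in that order, were as follows. In DG they were 33.1 and 28.8, 28.8 and 32.0, 44.1 and 55.7, 502 and 577, and 22.7 and 23.9. In CT they were 30.4 and 75.8, 63.7 and 27.7, 169 and 106, 995 and 724, and 43.6 and 99.6. Nrgn, Mobp and Ptgds against CT, and Nrgn, Hpca, Junb and Arc against FCT, passed in each of 16 alternatives, 12 of which left out 1 mouse, and the largest adjusted p among these was 0.0182.

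**Figure D4:**
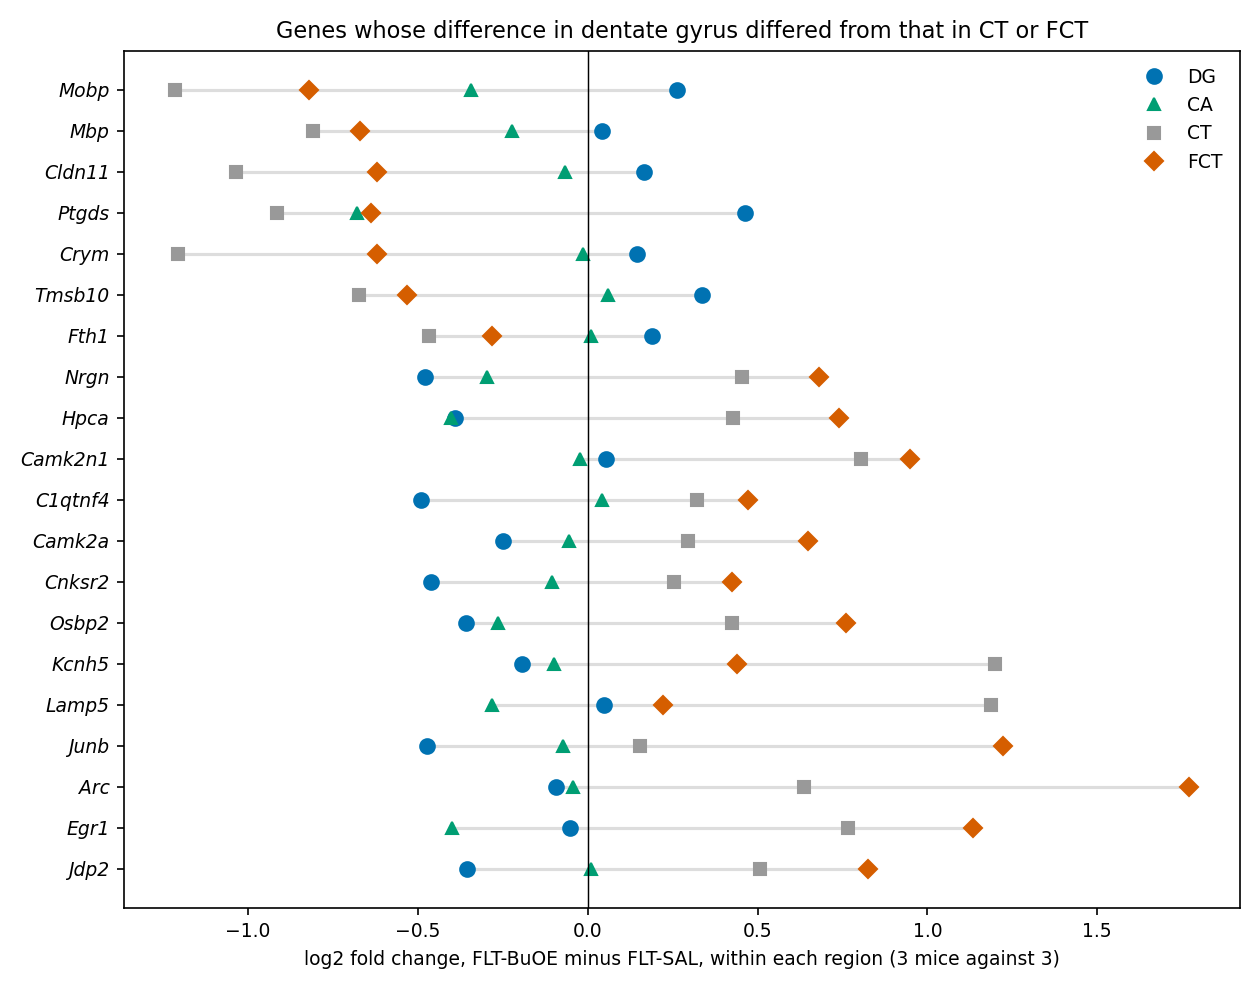
Log2 fold change of FLT-BuOE over FLT-SAL (x axis) within DG, CA, CT and FCT, 3 mice against 3, for 20 genes whose value in DG differed from that in CT or FCT at an adjusted p below 0.05. For Mobp the points run from -1.21 in CT to 0.26 in DG, and for Nrgn from -0.48 in DG to 0.68 in FCT.

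The starts of the leading genes were searched for letters of known response elements, as a description. RefSeq promoters of GRCm38, 250 bases before to 50 after the start, matched 16 of the 20 genes of smallest p and 12484 of all genes tested. The E-box CACGTG, which reads the same on both strands and is the letter pattern of MYC, MAX and the MXD repressors, was in 3 of the 16 (18.8%) and in 9% of all. The antioxidant response element TGACNNNGC, either strand, was in 2 of the 16 (12.5%) and in 13.9% of all, and the cAMP response element TGACGTCA, a palindrome, was in 0 of the 16 and in 2.76% of all. Neither 1 spelling of the serum response element nor 1 of the heat shock element was found in the 16, and 0.0401% and 0.441% of all promoters held them. The 3 windows with the E-box, its letters in capitals, are shown because they belong to Adcy1, Sorl1 and Mxd4, the last of which encodes one of the repressors that bind these letters. They lie at chr11:7063237-7063296 (plus strand), chr9:42124284-42124343 (minus strand) and chr5:34187897-34187956 (minus strand).
Adcy1: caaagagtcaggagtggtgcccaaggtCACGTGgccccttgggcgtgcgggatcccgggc
Sorl1: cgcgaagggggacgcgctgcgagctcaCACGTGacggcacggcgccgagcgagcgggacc
Mxd4: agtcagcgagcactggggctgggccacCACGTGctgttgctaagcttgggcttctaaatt
Mxd4 itself was at 32.6, 26.5 and 34.3 in FLT-SAL and at 16.7, 13.8 and 16.7 in FLT-BuOE, without overlap (-0.94, adjusted p = 0.317), at 2.13 times the negative-control value.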

How the data were processed

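Reads were turned by the authors into deduplicated counts in the GeoMx pipeline. They deposited these counts of 20175 probes per AOI, and normalized each AOI by its upper quartile. These deposited Q3-normalized values are a signal on a linear scale, for 15782 genes and the negative-control probes, in 1 table per region. All tables share an upper quartile of 40.0. Dividing by each AOI's step gave whole counts for 99.98% of DG values (within 0.02 of a count). The 15779 genes whole in all 12 AOIs equalled exactly 1 probe each and were used for edgeR and DESeq2. The deposited fold changes and p-values of the authors' own comparisons were not used. No genome build enters the counting, and the build of the probe design is not given in the sources used here.

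limma 3.58.1 (R 4.3.3) was fitted to log2(value + 1) of the 12 DG AOIs with 1 mean per group, 8 residual degrees of freedom, and empirical Bayes moderation with a trend, and p-values were adjusted over all genes by Benjamini-Hochberg. Fold changes are on that scale and understate those of low genes. Intervals are 95% intervals from the moderated SE. Regions were compared on log2 differences within mice. edgeR 4.0.16 (quasi-likelihood) and DESeq2 1.42.0 were alternatives. limma and edgeR were tried on simulated counts for the flight contrast, and limma for the ground contrast. At the thresholds used here, limma called 18% of genes changed by a log2 of 0.585, 62% at 1 and 96% at 1.5. edgeR called 20%, 68% and 94%. Of 15579 unchanged genes limma called 7 and edgeR 9. 3 mice against 3 cannot go below p = 0.1 in an exact permutation test, so single-gene tests rely on the fit across genes. The members, gene lists and tests were chosen with earlier results of these data known. Genes are named as the 20 of smallest p, list members of smallest p, the study's 12 DG genes and genes that passed a region test. Genes in edgeR's lists or of single-mouse values were named after their values were seen. Same-numbered mice are not the same animals. Replicates differ by more than sampling noise (chi-square per gene 1.16 to 1.28).
Some genes are not reported here.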

Additional observations from a re-analysis of the deposited data

Results flagged for a closer look

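The results below stand out because the BuOE difference in flight in DG differed, by a test of that difference within mice, from the difference in another region. Values are the log2 fold change of FLT-BuOE over FLT-SAL in DG minus that in the other region, at a limma adjusted p below 0.05 with no fold threshold, and positive values mean a higher log2 fold change in DG.

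Against CA the only gene was Cpne7, at -1.54, with a low level in DG. Against CT, among the genes reported, the values were Mobp 1.48, Nrgn -0.93, Ptgds 1.38, Kcnh5 -1.39, Camk2n1 -0.75, Hpca -0.82, Crym 1.35, Tmsb10 1.01, Mbp 0.85, Cldn11 1.20, Fth1 0.655, Lamp5 -1.14 and C1qtnf4 -0.81. Against FCT they were Nrgn -1.16, Junb -1.70, Arc -1.86, Hpca -1.13, Camk2a -0.90, Mobp 1.08, Camk2n1 -0.90, Ptgds 1.1, C1qtnf4 -0.96, Cnksr2 -0.89, Jdp2 -1.18, Egr1 -1.19 and Osbp2 -1.12. The DG values enter both cortical comparisons, so the lists are not independent of each other. Groups of 3 are too small for a test of single outlying samples.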

How the results depend on the processing

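In limma with other pseudocounts, filters or scalings the count in DG in flight stayed at 0. It was 6 with edgeR, 1 with log2 depth as a covariate (Snx5) and 3 with the replicate block (Clec2j, Mmp17, Wipf3), and 0 to 9 when 1 mouse was left out. Without FLT-BuOE mouse 2 it was 4 (Actg1, Acvr1b, Ncdn, Sorl1), and without FLT-BuOE mouse 3 it was 9 (among them Adcy1, Clec2j, Olfr1350, Prss30, Sema4c, Sesn3, Wipf3, Zfp68). In edgeR, leaving out 1 flight mouse (chosen after seeing the data) gave 5, 8 and 4 without FLT-SAL mouse 1, 2 and 3, and 3, 7 and 5 without FLT-BuOE mouse 1, 2 and 3. Called list members numbered 0 to 1 under these settings, 1 of them in edgeR without FLT-BuOE mouse 2 and 1 without mouse 3. The interaction count was 7 with edgeR, 3 with the depth covariate, 5 with the replicate block and 0 to 5 with 1 mouse left out. The ground count was 5 with edgeR and 0 to 3 with 1 mouse left out. DG against CA gave 2 with a pseudocount of 10 (Cpne7, Ptgds), 0 with the mouse as a random block and 0 to 4 with 1 mouse left out. Leaving out 1 mouse gave 5 to 26 for DG against CT and 5 to 18 for DG against FCT, and the replicate block 13 and 16. The numbers do not pair the mice, since same-numbered mice had correlations of deviations from -0.017 to 0.032 and not every mouse correlated best with its own number. The cause of these differences in count was not tested.

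With the depth covariate the log2 fold change changed sign for Clec2j (-0.40), Dpysl5 (0.011), Nudt3 (0.28), Gfap (0.021), Mt3 (0.30), Hsp90ab1 (0.16), Ndufa4 (0.018), Uqcr11 (0.094), Syt7 (0.10), Cplx2 (0.17), Nsf (0.075), Gria3 (0.026), Camk2b (0.14), Atp2b2 (0.21), Cacna1h (0.30), Calm3 (0.39), Ppp3ca (0.012), Actb (0.18), Ccl2 (-0.10), Crygc (0.25), Kcna4 (1.13) and Ptgs1 (0.22), and that of Crygc was 0.018 in edgeR without FLT-BuOE mouse 2. It was -0.41 for Nrgn, -0.43 for Mmp17, -0.35 for Adcy1 and -0.07 for Wipf3. Of the other values of named genes 2563 kept their direction and side of the threshold, and 24 passed it under an alternative. Of the region differences of single genes, 56 of 240 alternatives against CT and 36 of 240 against FCT no longer passed, in the same direction. Leaving out 1 mouse in limma also turned the sign of list medians. It gave -0.011 for the myelin genes without FLT-BuOE mouse 2 and 0.016 for the metallothioneins without FLT-SAL mouse 3. For the granule cell markers it gave 0.033 and 0.046 without FLT-SAL mouse 1 and FLT-BuOE mouse 1. For superoxide and peroxide removal it gave 0.030 and 0.004 without FLT-SAL mouse 3 and FLT-BuOE mouse 1. The CA1, mossy cell, astrocyte, endothelial, meningeal, red cell, inflammation, apoptosis and cold-inducible medians turned as well. Among other lists, the depth covariate turned the medians of granule cell markers, metallothioneins and glucocorticoid-responsive genes, to 0.30, 0.24 and 0.16. It also turned those of inflammation, mossy cell and cold-inducible genes, to 0.26, 0.23 and 0.14. The apoptosis, astrocyte and oligodendrocyte precursor medians turned to 0.03, 0.02 and -0.05, and that of all genes to 0.02. Depth and group do not overlap in flight, so the covariate leaves little to separate them.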
